A study of Homo sapiens with 4 samples.

Results

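The genes described here are the microRNA precursor genes of an RNA-seq table of MDA-MB-231, a triple negative breast cancer cell line with mesenchymal features. A member is a gene with a symbol that starts with MIR or MIRLET followed by a digit, with an exonic length under 200 bases and a mean level of at least 1 RPKM (reads scaled by gene length and library depth) over the 4 libraries. That left 137 members of 506 precursor genes of this length, in a table of 32955 genes. The members were thus chosen by their mean level over all libraries, so their levels are given as a description, and the comparison between the treatments was not used in the choice.

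The treatments were compared, each in 2 libraries: cells transfected with mimic NC, a negative control mimic, and cells transfected with miR-217 mimic. The cells of both groups were the same line, grown in DMEM with 10% fetal bovine serum, and nothing in the labels says whether the libraries of a group came from separate cultures, so p-values measure the spread between these libraries, which may be technical. The comparison addresses what miR-217 does to RNA levels in breast cancer cells. The mimic itself is a small RNA that a library of this kind does not measure, and MIR217 has no row among the values analysed here.

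A microRNA starts as a hairpin in a longer transcript. The nuclease Drosha, with DGCR8, cuts the hairpin out, and Dicer trims it to a mature strand that an Argonaute protein carries to target mRNAs, which it finds mainly by pairing through the seed, bases 2 to 8 of the microRNA. Many hairpins lie in the introns of protein-coding genes, called host genes. In a mirtron the spliced intron itself is the hairpin, so the spliceosome takes the place of Drosha. Libraries of longer RNA such as these hold no mature microRNA, and a read on a precursor gene can come from the primary transcript, from an unspliced host or from any other transcript across the same bases.

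The mature sequences of the members with the highest levels are given first, since most of the reads on the members fell there. Sequences are those of RefSeq on GRCh38.p14, written 5′ to 3′ with the seed in capitals. A hairpin of the same symbol was found there for 117 members, 115 of them at the same coordinates, and a mature sequence for 126.
hsa-miR-1282: uCGUUUGCcuuuuucugcuu
hsa-miR-6728-3p: uCUCUGCUcugcucuccccag
hsa-miR-3661: uGACCUGGgacucggacagcug
hsa-miR-762: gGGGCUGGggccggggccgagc
hsa-miR-6515-3p: uCUCUUCAucuaccccccag

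The next set shows 3′ arms from members that fill a whole intron of their host. Those of MIR877, MIR6765, MIR1226 and MIR6807 end in the bases ag, with which nearly every human intron ends, while the annotated arm of MIR6891 stops short of the end of its hairpin.
hsa-miR-877-3p: uCCUCUUCucccuccucccag
hsa-miR-6765-3p: uCACCUGGcuggcccgcccag
hsa-miR-1226-3p: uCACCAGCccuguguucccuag
hsa-miR-6807-3p: cACUGCAUuccugcuuggcccag
hsa-miR-6891-3p: cCCUCAUCuuccccuccuuuc

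A last set shows members that share a seed, and miR-217 itself. The let-7 seed GAGGUAG was carried by 5 members, more than any other seed except that of the MIR941 copies, also with 5. The seed of miR-221-3p and miR-222-3p was shared by MIR221 and MIR222. The seed of miR-217-5p, ACUGCAU, was found in 1 member, MIR6807. The sequence of the mimic is not given in the sources used here, and the strand printed is that of RefSeq.
hsa-miR-217-5p: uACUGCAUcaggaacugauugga
hsa-let-7f-5p: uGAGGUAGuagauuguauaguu
hsa-let-7i-5p: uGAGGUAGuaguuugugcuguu
hsa-let-7d-5p: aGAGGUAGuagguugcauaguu
hsa-miR-98-5p: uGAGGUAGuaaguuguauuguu
hsa-miR-4500: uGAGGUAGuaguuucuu
hsa-miR-221-3p: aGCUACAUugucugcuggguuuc
hsa-miR-222-3p: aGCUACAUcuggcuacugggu

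The libraries held 57933183 and 47374957 reads for mimic NC and 53356283 and 32635814 for miR-217 mimic, as recovered from the RPKM values. A single read on a gene of 100 bases was worth 0.173 to 0.306 RPKM. The members took 28994, 20094, 25974 and 13042 of these reads, in the same order of libraries, and 1, 1, 2 and 4 members had no read. The markers of the line were present, with a mean of 34.3 RPKM for VIM, 17.8 for CD44 and 122 for S100A4, and the oestrogen receptor gene ESR1 and the luminal factor GATA3 lay at 0.0583 and 0.0802 RPKM. Of the genes expected low, EPCAM had 5.38 RPKM and ERBB2 2.79. Markers of leukocytes, fibroblasts and endothelium ranged from 0.0792 RPKM (PECAM1) to 1.33 RPKM (DCN). In RNA from bulk cultures, fewer cells of a kind and less RNA per cell cannot be told apart.

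The way reads were assigned bears on every value below. The libraries were made with a stranded kit, yet the 4 pairs of genes that occupy the same bases on opposite strands had equal reads in every library. Short genes that lie inside a single exon of a longer gene never had more reads than that gene. This held in 4 of 4 libraries for 146 of 146 pairs on the same strand and for 88 of 88 pairs on opposite strands. Counting by strand could give that result as well, so it does not decide how reads were shared. The 4 pairs with equal reads point to counting for both genes without regard to strand. On that basis reads from a precursor and from a transcript across it, on either strand, cannot be told apart.

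The precursor genes were next located against the other genes of the table. Of the 137 members, 98 lay in an intron of a gene on their own strand, 22 overlapped an exon of a gene on the opposite strand, 7 lay in an opposite-strand intron only and 10 lay outside other genes. No member shared a base with a same-strand exon of a gene of 200 bases or more. A read that lies wholly in a host exon therefore does not touch these members, while a read that spans the edge of an exon can. With the exons of GENCODE 29, 1 member, MIR3184, fell in a same-strand exon.

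That class was nearly empty in the table as a whole. Of the 1880 precursor genes of this length in GENCODE 29, 258 lie in a same-strand exon of a gene of the table, and 1 of these 258, MIR6839, which is no member, has a row at the same coordinates among the values analysed here. Rows at the same coordinates were found for 42 of 58 precursors in opposite-strand exons, 353 of 834 in same-strand introns, 39 of 163 in opposite-strand introns and 70 of 567 outside other genes, 505 in all. Precursors in host exons were therefore not analysed here for the most part, whatever their reads.

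Places differed in their share of the reads. The 22 members in opposite-strand exons took 71.0% of all reads on members, the 98 in same-strand introns 26.9%, the 7 in opposite-strand introns 1.303% and the 10 outside other genes 0.826%. The medians of the levels were closer, at 3.70, 2.39, 2.56 and 2.68 RPKM. The reads were concentrated in a few genes, with 58.0% on MIR1282 alone and 90.6% on the 5 highest members. In all, 16 members reached 10 RPKM and 4 reached 100 RPKM, while 102 of 137 had a mean of fewer than 20 reads per library.

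**Figure D1:**
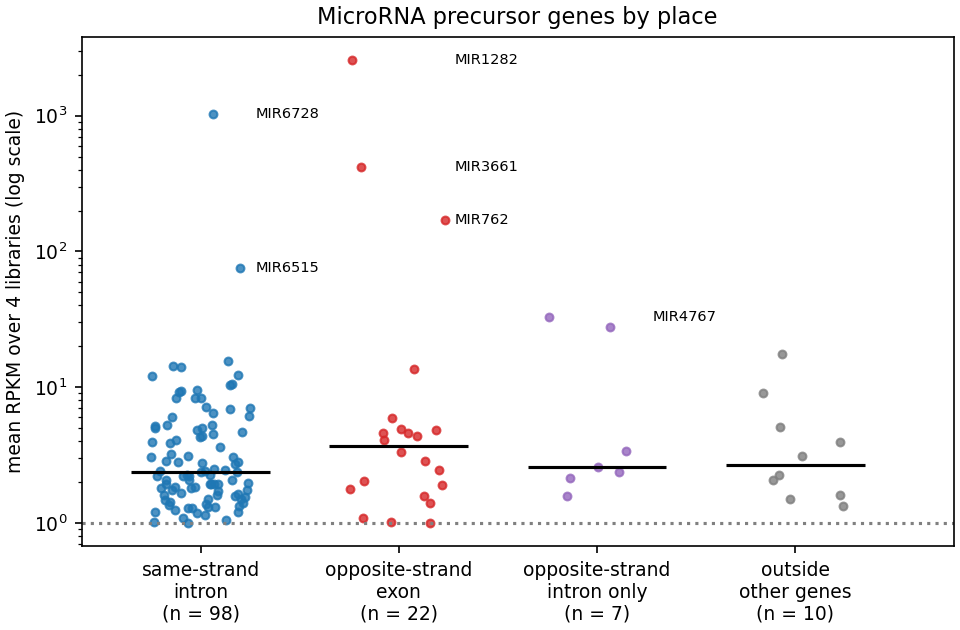
Mean RPKM over the 4 libraries (vertical axis, log scale) of the 137 members, by where each lies relative to other genes. Each point is a gene, spread sideways for legibility, the bars are medians and the dotted line is the limit of 1 RPKM. The medians lie between 2.39 and 3.70 RPKM, and 4 genes stand above 100 RPKM, of which MIR1282, MIR3661 and MIR762 lie in opposite-strand exons and MIR6728 in an intron.

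The members in opposite-strand exons were examined first. MIR1282, at chr15:43793659-43793759 (hg38, minus strand), lies within coding sequence of SERF2, which is read from the other strand. MIR1282 had 2925 and 2431 RPKM in the mimic NC libraries and 2910 and 2024 RPKM in the miR-217 mimic libraries. Both libraries numbered 2 were below both numbered 1, and the treatments overlapped. The change between treatments on the log2 scale was -0.14 ± 0.25 (SE, n = 2 per group) with an unadjusted limma p of 0.614.

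SERF2, a small factor known to modify protein aggregation, had 202, 211, 210 and 192 RPKM in the same libraries. The level of MIR1282 per length was 12.6 times that of SERF2, and its reads amounted to 17.8% of those of SERF2. MIR1282 also lies in an intron of RP11-296A16.1 on its own strand, and that gene had a mean of 3.37 RPKM. 

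MIR3661, at chr5:134225757-134225852 on the plus strand, overlaps exons of CTD-2410N18.5 and of PPP2CA, the catalytic subunit of protein phosphatase 2A. It had 421 and 396 RPKM with mimic NC and 416 and 441 RPKM with miR-217 mimic, so the groups overlapped. CTD-2410N18.5 had a mean of 475 RPKM, and the reads of MIR3661 were 17.2% of its reads.

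MIR762, at chr16:30893903-30893985 on the plus strand, overlaps coding sequence and UTR of BCL7C, a subunit of SWI/SNF chromatin remodelling complexes. Its levels were 176 and 166 RPKM with mimic NC and 200 and 145 RPKM with miR-217 mimic, and the miR-217 mimic libraries lay on either side of the controls. BCL7C had a mean of 7.30 RPKM, and the reads of MIR762 amounted to 44.1% of its reads. The same-strand host, MIR762HG, had 2.14 RPKM. None of these 3 members had a same-strand gene at a like level.

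Over the 22 members in opposite-strand exons the median level was 2.11 times that of the overlapped gene, with 13 above it and 9 below. Across these members the log2 levels of member and overlapped gene had a Pearson r of 0.57 and a Spearman rho of 0.42, as a description over genes that share the same libraries and, in part, the same reads. The median member held reads equal to 7.39% of those of the overlapped gene. MIRLET7I shared only 5 of its 84 bases with an exon of LINC01465 and had more reads than that gene in 3 of 4 libraries (33, 18 and 15 against 18, 11 and 4) and fewer in miR-217 mimic replicate 2 (8 against 10). MIR4461, by contrast, lies wholly inside MTND4LP30, a pseudogene copy of a mitochondrial gene, where reads may be split between near-identical copies.

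The 98 members in same-strand introns were then set beside their hosts. Their median level was 0.223 times that of the host per length, with 80 members below the host and 18 above. The spread was wide, from a log2 ratio of -6.34 to 3.78. Over all 107 members with a same-strand host, members in opposite-strand exons included, the median log2 ratio was -2.13, with 83 below and 24 above. Among the 25 of these with at least 20 mean reads it was -0.41, with 13 below and 12 above. The level of a member followed that of its host only loosely, with r = 0.35 and rho = 0.27 over 98 genes on the log2 scale, and the limit of 1 RPKM removed the low members.

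**Figure D2:**
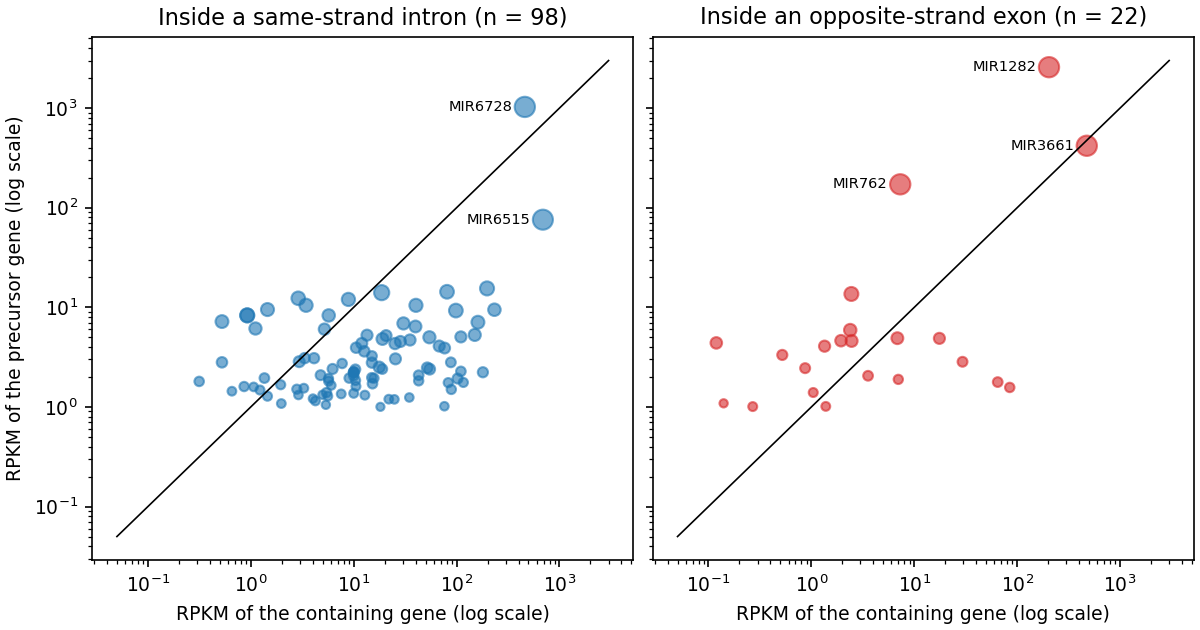
Level of each member (vertical axis) against the gene that contains it (horizontal axis), both as mean RPKM over 4 libraries on log scales, for members in same-strand introns (left, n = 98) and in opposite-strand exons (right, n = 22). Larger points have more reads and the line marks equal levels. In introns 80 of 98 members lie below the line, and in opposite-strand exons 13 of 22 lie above it.

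Many of these introns were short, and many members reached their very edge. Of the 98, 52 had no base between themselves and a host exon: 43 ended at the 3′ end of the intron, 2 at the 5′ end and 7 filled it from end to end. Within 10 bases of an exon lay 57.1% of the 98 members and 31.8% of the 255 intronic precursors that fell below 1 RPKM. The intron had a median of 771 bases for members and 2825 for the precursors below the limit, and the host a median of 11.3 and 3.23 RPKM. These differences accompany the choice by level and were not tested.

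The sequence at the 3′ end was set in large part by the place. Nearly every human intron ends in AG, so members picked for ending with an intron must mostly do so too. Of the 50 members that end where the intron ends, 46 had a RefSeq hairpin, and 45 of the 46 hairpins (97.8%) ended in AG. Of the other members in same-strand introns 1 of 42 (2.38%) did, and among all 1560 human hairpins of RefSeq at hand 16.9% did. The hairpins that touch a host exon had a median GC content of 61.3%, those elsewhere in introns 49.8% and all hairpins 52.1%.

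MIR6728 had by far the highest level among intronic members. It lies at chr1:8866502-8866590 on the minus strand and ends where an intron of 615 bases in ENO1, the glycolytic enzyme enolase 1, ends. Its levels were 1092 and 950 RPKM with mimic NC and 989 and 1078 RPKM with miR-217 mimic, and the groups overlapped. ENO1 had 491, 431, 467 and 453 RPKM in the same libraries. MIR6728 was thus 2.23 times as high as its host per length, on the side of the 18 intronic members above their hosts.

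MIR6515, at chr19:12940484-12940540 on the plus strand, ends with an intron of 88 bases in CALR, which encodes the endoplasmic reticulum chaperone calreticulin. It had 96.6 and 42.2 RPKM with mimic NC and 100.9 and 63.4 RPKM with miR-217 mimic. Within each treatment the library numbered 1 was the higher. CALR followed the same order, with 882 and 481 RPKM in mimic NC and 858 and 539 RPKM in miR-217 mimic, and the log2 ratio of MIR6515 to CALR ranged only from -3.51 to -3.09.

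MIR616 behaved otherwise. It lies at chr12:57519163-57519259 on the minus strand, 1158 bases from the nearest exon in an intron of DDIT3, the stress-induced transcription factor CHOP. Its levels were 13.2 and 14.8 RPKM with mimic NC and 13.3 and 14.8 RPKM with miR-217 mimic. DDIT3 had 7.40 and 30.8 RPKM with mimic NC and 6.87 and 29.8 RPKM with miR-217 mimic. The host was higher in the libraries numbered 2 and the member differed little, so the log2 ratio ran from -1.06 to 0.96.

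The 7 members that fill a whole intron were all below their hosts, by a median to 0.102 of the host level. They were MIR6891 in HLA-B, an antigen-presenting HLA class I gene, MIR877 in the ribosome-associated ABCF1, MIR6807 in the corepressor TRIM28, MIR6765 in the Notch ligand JAG2, MIR1226 in the RNA helicase DHX30, and MIR1233-1 and MIR1233-2 in the paralogues GOLGA8A and GOLGA8B. These introns had 75 to 93 bases. Across the 7, log2 levels of member and host had r = 0.87, as a description.

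MIR877 had 10.0 and 7.61 RPKM with mimic NC and 7.85 and 2.85 RPKM with miR-217 mimic, against a mean of 161 RPKM for ABCF1. MIR6891 had 8.72 and 6.13 RPKM with mimic NC and 12.7 and 9.55 RPKM with miR-217 mimic, against 98.4 RPKM for HLA-B. In MIR6891 both miR-217 mimic libraries were above both mimic NC libraries, with a log2 fold change of 0.53 ± 0.22 (SE, n = 2 per group) and an unadjusted limma p of 0.0625. HLA-B is highly similar to other HLA class I genes, and its reads can be split between them.

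The levels were also described by distance to the host exon, a split made after the data were seen and over members chosen by level, and the difference was not tested. For the 52 that touch an exon, the median log2 ratio was -2.59 with r = 0.53 and rho = 0.43. For the 46 that do not, it was -1.98 with r = -0.12. Of the members with at least 20 mean reads, MIR6857 in the cohesin gene SMC1A, MIR6747 in EEF1G, MIR877, MIR6819 in MYH9 and MIR6826 in COPG1 lay lowest against their hosts, with 0.0351 to 0.0919 of the host level. All 5 touch an exon of a host with a mean of 54.5 RPKM or more. At that many reads, so low a ratio requires a host of high level. Among members with fewer reads, MIR590 in EIF4H and MIR2116 in MYO1E lay lower still, at log2 ratios of -6.34 and -6.23. Neither touches an exon, and the nearest lies 891 and 634 bases away.

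MIR221 and MIR222, whose products repress the cell cycle inhibitor CDKN1B, lie 56 and 914 bases from an exon in an intron of 22279 bases of MIR222HG on chromosome X. MIR221 had 10.8 and 8.83 RPKM with mimic NC and 4.94 and 8.64 RPKM with miR-217 mimic. MIR222 had 10.2 and 6.72 RPKM with mimic NC and 11.2 and 5.01 RPKM with miR-217 mimic. Both controls of MIR221 exceeded both libraries with the mimic, at a log2 fold change of -0.51 ± 0.27 (SE, n = 2 per group) with an unadjusted limma p of 0.115, while the groups of MIR222 overlapped. Without miR-217 mimic replicate 1 the log2 fold change was -0.16 for MIR221 and -0.63 for MIR222. When replicate 2 of that treatment was left out instead, it was -0.86 for MIR221 and 0.40 for MIR222. The levels of MIR221 and MIR222 were 8.999 and 8.984 times that of the host, which had a mean of 0.923 RPKM.

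The let-7 microRNAs repress RAS genes and HMGA2, and the members with that seed came from 5 different precursors. MIRLET7F1 and MIRLET7D share an intron of 34104 bases in RP11-2B6.3 on chromosome 9. MIRLET7F1 had 9.13 and 6.55 RPKM with mimic NC and 7.11 and 5.99 RPKM with miR-217 mimic, and MIRLET7D had 2.58 and 1.94 against 3.88 and 2.82 RPKM. The groups of MIRLET7F1 overlapped, and MIRLET7D was higher in both miR-217 mimic libraries with a log2 fold change of 0.41 and an unadjusted limma p of 0.0785.

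MIR98, in the ubiquitin ligase gene HUWE1, had 15, 4, 15 and 18 reads, and MIR4500, in MIR4500HG, had 45, 21, 31 and 2 reads, in the order mimic NC replicates 1 and 2, then miR-217 mimic replicates 1 and 2. The low second miR-217 mimic library carries the log2 fold change of MIR4500, -1.15 on the log2(RPKM + 1) scale, with an unadjusted limma p of 0.202, and without that library it was -0.018. MIRLET7I is given with the members that passed the unadjusted limit. The 5 thus had no common direction, with 2 log2 fold changes above 0 and 3 below.

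Several members are copies whose reads cannot be assigned. MIR6859-1, MIR6859-2, MIR6859-3 and MIR6859-4 have identical hairpins and had 17.4, 4.35, 10.5 and 1.44 RPKM at 4 places. MIR941-3, MIR941-4 and MIR941-5 have identical hairpins and lie, with MIR941-1 and MIR941-2, in an intron of the cochaperone gene DNAJC5, with levels from 1.37 to 2.25 RPKM over the 5. MIR1233-1 and MIR1233-2 are identical too, and MIR1184-2, MIR1244-2, MIR4444-2 and MIR6862-2 have identical copies that are no members. The levels of these genes are uncertain, because the authors' handling of reads that map to several places is not given in the sources used here.

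MIR1291 lies in an intron of KANSL2 and overlaps the small nucleolar RNA gene SNORA2C on the same strand, so its 11, 6, 12 and 6 reads may belong to either. MIR25 and MIR93, of the cluster in the replication helicase gene MCM7, had 2.08 and 1.83 RPKM, and MIR103A1 and MIR107, in the pantothenate kinase genes PANK3 and PANK1, had 1.05 and 1.60 RPKM. Other members among the 15 highest were MIR1244-2 with 27.6 RPKM, MIR6819 with 15.5, MIR6835 in HMGA1 with 14.3, MIR6817 in CRYBB2P1 with 12.3 and MIR6772 in KIFC3 with 12.002 RPKM, and their unadjusted limma p-values ran from 0.146 (MIR6819) to 0.937 (MIR1244-2). Just inside the limit lay MIR1260B with 1.01 RPKM, MIR1184-2 with 1.01 RPKM and MIR6827 with 1.00 RPKM. Just outside it lay MIR6877, MIR5690 and MIR4519 with 0.970, 0.968 and 0.963 RPKM, or 2.5 to 3 reads per library.

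The comparison of miR-217 mimic with mimic NC was fitted over 13871 genes with limma on log2(RPKM + 1). No member passed an adjusted p of 0.05, and neither did any other gene, a share of 0%. The smallest p that an exact permutation of 2 libraries against 2 can give is 0.333, so single genes were not tested that way. At an unadjusted p under 0.05, 7 members were higher with miR-217 mimic and 13 lower, or 14.6% of members, beside 1.19% of all genes tested, 0.483% higher and 0.707% lower. A replicate block raised both shares, to 35% of members (20 higher and 28 lower) and 7.54% of all genes. Counts and their balance also moved with a library left out.

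Of the 20 members called without a block, 6 had a mean under 1 RPKM in the lower group. They were members only through the higher one (MIR6765, MIR1226, MIR6724-1, MIR4646, MIR6762 and MIR2116), beside 15 such members in all. Short genes as a whole had a like share. Of the 344 other tested genes under 200 bases, 11% had an unadjusted p under 0.05, so the share among members lies near that of genes of their size. By limma voom, which weighs each value by its reads, 2 members passed the same limit, MIR6765 higher and MIR1226 lower, or 1.46% of members beside 0.591% of all genes, 0.187% higher and 0.404% lower. Both met the limit of 1 RPKM only through their higher group, so the choice by level favours their difference: MIR6765 had means of 0.595 RPKM with mimic NC and 2.42 RPKM with miR-217 mimic, and MIR1226 had 2.05 and 0.579 RPKM. Both fill a whole intron, and both had fewer mean reads (6 and 5) than the median member (9.25).

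**Figure D3:**
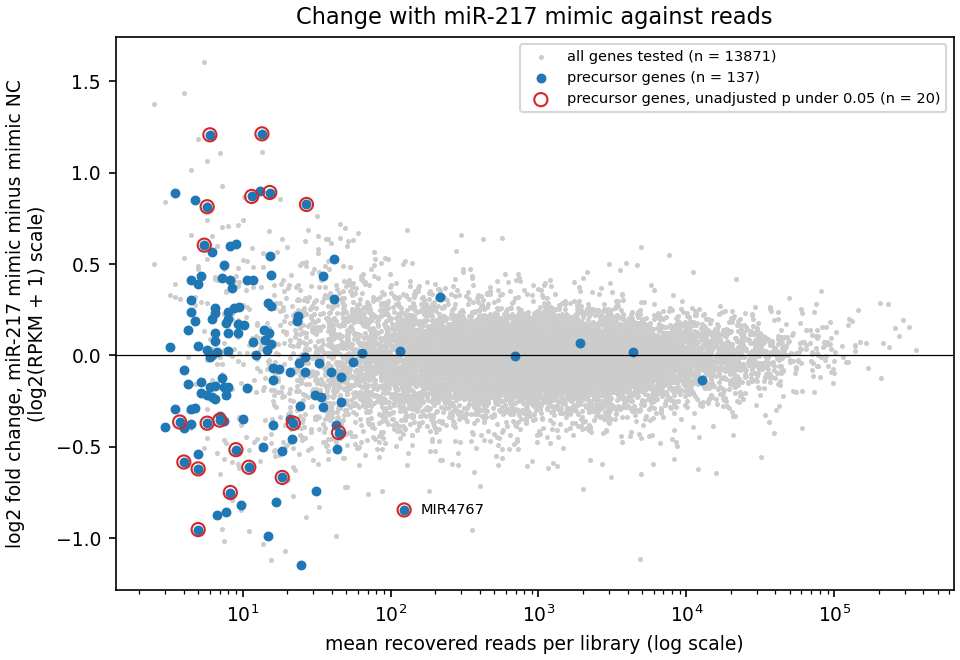
Log2 fold change with miR-217 mimic on the log2(RPKM + 1) scale (vertical axis) against mean reads per library (horizontal axis, log scale), for all 13871 genes tested (grey), the 137 members (blue) and the 20 members with an unadjusted p under 0.05 (red rings). Fold changes widen as reads fall, for members and other genes alike, and MIR4767 is the ringed member with the most reads.

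The median log2 fold change of the members was -0.0087, beside -0.017 for all genes tested, with 66 members above 0 and 71 below. Their median absolute log2 fold change was 0.28, beside 0.086 for all genes. Within replicate number 1 the median of the members was -0.12, and within number 2 it was 0.034. The groups did not overlap for 15 members in the higher and 24 in the lower direction, 10.9% and 17.5% of members beside 9.72% and 13.5% of all genes tested. In either direction that was 39 members, 28.5% beside 23.2% of all genes.

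The 13 members that were lower at the unadjusted limit included the one with the most reads, MIR4767. It lies at chrX:7147860-7147937 on the plus strand, in an intron of an opposite-strand gene only. It had 32.3 and 53.0 RPKM with mimic NC and 22.8 and 22.4 RPKM with miR-217 mimic, from 146, 196, 95 and 57 reads. Both miR-217 mimic libraries were below both controls, with a log2 fold change of -0.85 ± 0.25 (SE, n = 2 per group), an unadjusted limma p of 0.0221 and a limma voom p of 0.0517. Without mimic NC replicate 2, the higher control, the log2 fold change was -0.50 with an unadjusted limma p of 0.0682. Pooled by group, the levels were 41.6 RPKM with a 95% exact Poisson interval of 37.3 to 46.3 and 22.7 RPKM with 19.2 to 26.6. Such intervals cover counting error only.

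MIRLET7I, at chr12:62603686-62603769 on the plus strand, had 6.78 and 4.52 RPKM with mimic NC and 3.35 and 2.92 RPKM with miR-217 mimic, from 33, 18, 15 and 8 reads. Its log2 fold change was -0.67 ± 0.20 (SE, n = 2 per group) with an unadjusted limma p of 0.0223, and its host RP11-631N16.2 had a log2 fold change of 0.087. MIR4271, which overlaps coding sequence of C3orf62 on the other strand, had 15.7 and 15.8 RPKM with mimic NC. With miR-217 mimic it had 12.03 and 10.98 RPKM, and the log2 fold change was -0.42. In both genes the miR-217 mimic libraries lay below the controls without overlap. The limma p of MIRLET7I was 0.0957 without mimic NC replicate 1, with a log2 fold change of -0.42, and 0.0555 without miR-217 mimic replicate 2. That of MIR4271 was 0.0930 to 0.103 without any 1 of the libraries other than miR-217 mimic replicate 1.

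MIR30C2, whose product belongs to the miR-30 family, had 17, 13, 9 and 5 reads and a log2 fold change of -0.61. MIR30B, of the same family but not among the 13, had 11, 3, 17 and 5 reads and a log2 fold change of 0.61. MIR4664, in an intron of FAM83H, had 12, 12, 5 and 4 reads and a log2 fold change of -0.75. MIR6720, which overlaps coding sequence of the forkhead factor gene FOXF2 on the other strand, had 31, 24, 21 and 12 reads. MIR1226, in the intron of 75 bases of DHX30, had 8, 8, 3 and 1 reads and a log2 fold change of -0.95 with an unadjusted limma p of 0.00264. Its size depended on the pseudocount, at -1.70 with 0.1, and MIR1226 is 1 of the members that met the level limit through a single group. The other members of the 13 were MIR6762, MIR2116, MIR6864, MIR4461, MIR4646 and MIR548AM, with log2 fold changes of -0.62 to -0.35 and at most 14 reads in any library. The value of -0.62 is that of MIR6762, and it was -0.40 without mimic NC replicate 1.

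The 7 higher members had fewer reads than MIR4767 as well. MIR6747, at the edge of an intron of EEF1G, a subunit of the translation elongation factor eEF1 complex, had 7.64 and 5.54 RPKM with mimic NC and 12.6 and 12.1 RPKM with miR-217 mimic, from 27, 16, 41 and 24 reads. Its log2 fold change was 0.83 with an unadjusted limma p of 0.00547, and its host had a log2 fold change of -8.68e-05. MIR6746, in the fatty acid desaturase gene FADS3, had 11, 6, 18 and 11 reads, and MIR7106, in an intron of the helicase gene DDX54 and on the opposite strand to the UTR of CFAP73, had 15, 7, 28 and 11.

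MIR4737, outside other genes, had 6, 10, 17 and 21 reads and a log2 fold change of 1.21 with an unadjusted limma p of 0.0233. MIR6765, in the intron of 87 bases of JAG2, had 6, 0, 11 and 7 reads, so 1 control library held none, and it met the level limit only through the miR-217 mimic libraries. Its log2 fold change was 2.81 with a pseudocount of 0.1, with an unadjusted limma p of 0.0731. Without that library, mimic NC replicate 2, the log2 fold change of MIR6765 was 0.64 in place of 1.21, and without mimic NC replicate 1 that of MIR4737 was 0.88 with an unadjusted limma p of 0.0695. Without miR-217 mimic replicate 2 MIR4737 had a log2 fold change of 0.78. MIR4701, in the adenylate cyclase gene ADCY6, had 6, 2, 10 and 5 reads and a log2 fold change of 0.81. Its levels were 1.64 and 0.670 RPKM with mimic NC and 2.97 and 2.43 RPKM with miR-217 mimic. MIR6724-1 had 5, 3, 9 and 5 reads and a log2 fold change of 0.60. In the 20 members of both directions the pooled Poisson intervals of the groups were apart for 5, and 16 had a mean of fewer than 20 reads.

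**Figure D4:**
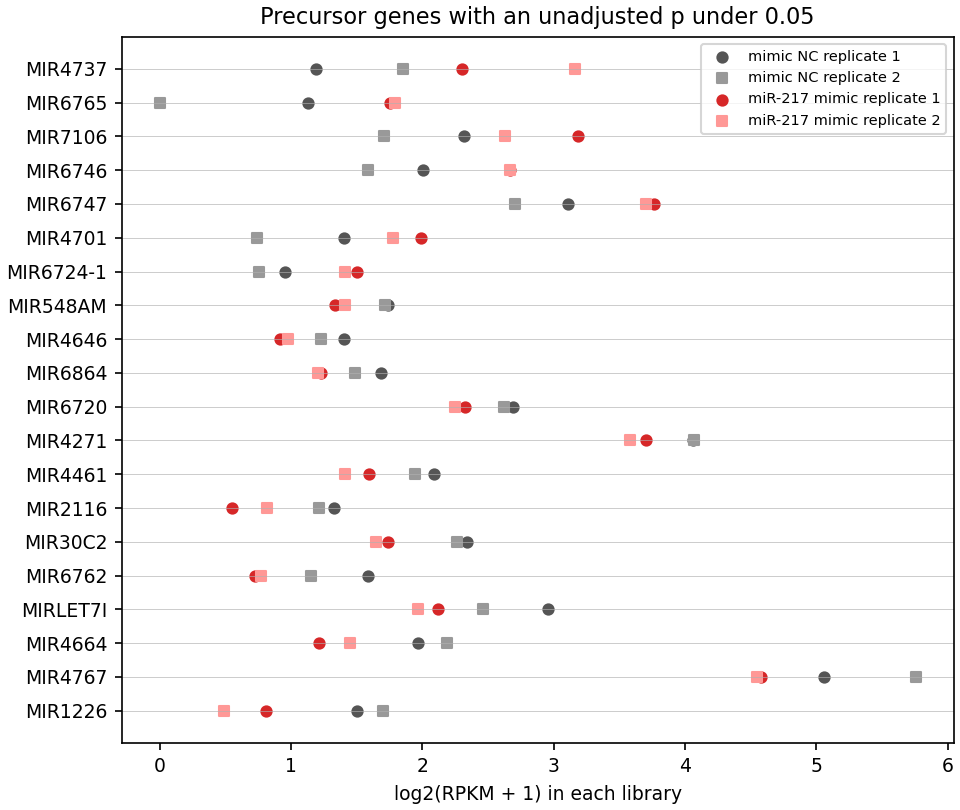
Level of the 20 members with an unadjusted p under 0.05 in each library, as log2(RPKM + 1), for mimic NC (grey) and miR-217 mimic (red), with circles for replicate 1 and squares for replicate 2. Genes are ordered by log2 fold change, from MIR4737 at the top (1.21) to MIR1226 at the bottom (-0.95). In all 20 the 2 groups do not overlap, which the limit on p favours, and for MIR6765 a mimic NC library lies at 0.

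Not every called member had a host to set beside it. MIR4767, MIR4271, MIR6720 and MIR4737 have no same-strand host, and PCBD2, the host of MIR4461, was not tested. Over the 97 members for which both the member and its same-strand host were tested, the log2 fold changes of the hosts lay between -0.23 and 0.25 and those of the members between -1.15 and 1.21. MIR4500 and MIR6765 set the ends for members, and MIR6765 met the level limit only through its higher group. The median absolute log2 fold change was 0.068 for hosts and 0.30 for members. None of the hosts had an unadjusted limma p under 0.05, beside 1.19% of all genes tested. Members and hosts differ in reads: over all 107 members with a same-strand host, the median member held 0.297% as many reads. The difference in spread was not tested at like reads. The median difference between member and host was 0.026, or -0.13 within replicate number 1 and 0.11 within number 2. Member and host had the same sign in 54 of 97 pairs, with r = 0.14 between their log2 fold changes. For members in opposite-strand exons, member and overlapped gene had the same sign in 13 of 17 pairs, with r = 0.61. These are descriptions over genes that, in part, share the same reads.

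**Figure D5:**
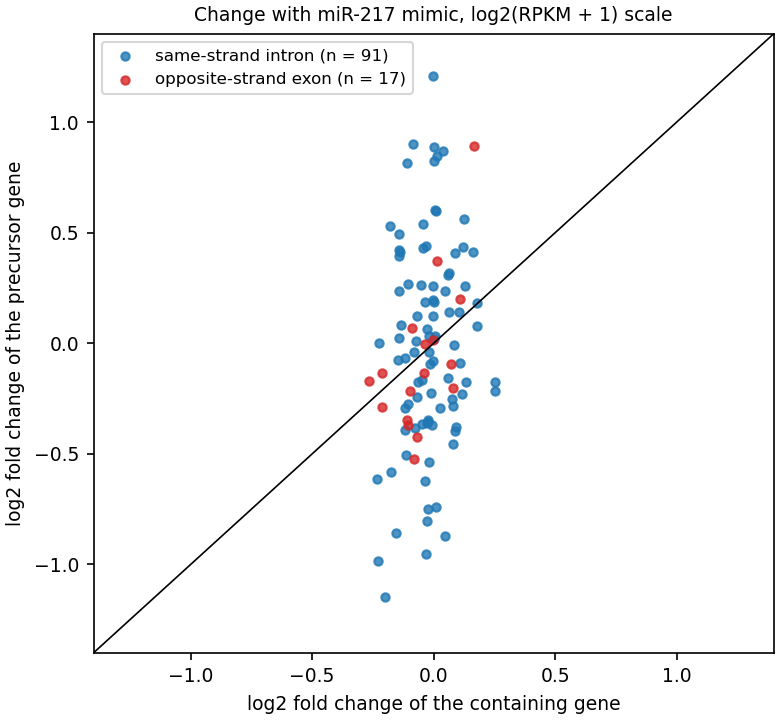
Log2 fold change with miR-217 mimic of each member (vertical axis) against that of the gene that contains it (horizontal axis), on the log2(RPKM + 1) scale, for members in same-strand introns and in opposite-strand exons where both were tested. The line marks equal change. The same-strand hosts stay between -0.23 and 0.25 and the members spread from -1.15 to 1.21.

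The widest gaps between member and host, among members with at least 20 mean reads, were those of MIR4500 (-0.95), MIR6747 (0.83), MIR877 (-0.75), MIR6891 (0.71) and MIR4258 (-0.53), the last in the cell cycle gene CKS1B. Their hosts had log2 fold changes between -0.20 and 0.08. Without miR-217 mimic replicate 2 the log2 fold change of MIR877 was -0.14 in place of -0.74, and without replicate 1 of that treatment it was -1.34. MIR4258 had 7.40 and 4.18 RPKM with mimic NC and 3.30 and 4.38 RPKM with miR-217 mimic, with overlap. Its log2 fold change was -0.11 without mimic NC replicate 1 in place of -0.46, and -0.81 without mimic NC replicate 2. The log2 fold change of MIR6891 was 0.34 without miR-217 mimic replicate 1 and 0.31 without mimic NC replicate 2. It was 0.72 without miR-217 mimic replicate 2 and 0.75 without mimic NC replicate 1. Of these 5 members only MIR6747 had an unadjusted limma p under 0.05 in the fit without a replicate block. With the block, MIR6891, MIR877 and MIR4500 also did, at limma p-values of 0.00138, 0.0243 and 0.0366. The share over all genes was then 7.54%. MIR6807, the member with the seed of miR-217-5p, had 9, 9, 7 and 5 reads and a log2 fold change of -0.17, and TRIM28 is its host.

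The genes that make and use microRNAs were examined beside the members, from a list of 14: DROSHA and DGCR8, the exporter XPO5 with its GTPase RAN, DICER1 with its partners TARBP2 and PRKRA, the Argonautes AGO1 to AGO4 and the silencing scaffolds TNRC6A, TNRC6B and TNRC6C. Of these, 13 were tested, and 0 were higher and 0 lower at an unadjusted limma p under 0.05, beside 1.19% of all genes tested. Their log2 fold changes lay between -0.27 (PRKRA) and 0.12 (DROSHA), with a median of 0.019.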

How the data were processed

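RNA-seq was analysed in 4 libraries of MDA-MB-231, 2 per treatment, grouped by the labels. The deposited table gives RPKM per gene, which the authors made from a stranded mRNA kit. The submitters' processing notes name Trimmomatic 0.36, featureCounts of Subread 1.5.1, edgeR 3.12.1 and hg38, with no settings. RPKM times length gave whole multiples of the value of 1 read for 100% of values (tolerance 0.01), and these reads set depth and counting error.

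Places came from the exons of the table and GENCODE 29. A host is the same-strand gene that shares most bases, then the highest level. Log2(RPKM + 1) was tested with limma 3.58.1 (R 4.3.3, trend, two-sided) over 13871 genes with a mean of at least 1 RPKM, with Benjamini-Hochberg adjustment over all of them. In a simulation of this comparison on 13870 genes, 95.5% of 200 genes changed 2-fold were recovered, with 26 unchanged genes called. The simulated counts had the same set spread for every gene and no difference between replicate numbers. In the real libraries deviations of the same number had a correlation of 0.68 over 13871 genes. The simulated rate is thus not the power of the test in these libraries. That rate is not split by reads. It does not describe the members, whose median is 9.25 mean reads. Named members are the 15 highest, those with an unadjusted p under 0.05, listed well-studied genes, the 5 highest and 5 lowest against their host and the 5 widest gaps in fold change (both with 20 mean reads or more), those inside small nucleolar RNA genes and those next to the level limit. MIR6807, MIR98, the other seed or cluster members and copies were named after their values were seen. Members and lists were chosen with earlier results of these data known.

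Alternatives were another pseudocount (0.1), no filter, a filter of 5 RPKM, median centring, limma voom on recovered reads, a minimum of 20 reads, a replicate block and each library left out. The placement by distance to exons, the ends of hairpins and the comparison with opposite-strand genes were added after the data were seen.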

Additional observations from a re-analysis of the deposited data

How the results depend on the processing

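No call at an adjusted p under 0.05 appeared in any fit. The counts at the unadjusted limit moved. Beside 7 members higher and 13 lower, limma voom gave 1 and 1 (0.591% of all genes in either direction), a filter of 5 RPKM 1 and 2 of 36 members (0.69% of 6953 genes), and a minimum of 20 reads 1 and 3 of 35 members (0.879% of 13544 genes). Leaving out each library in turn gave 6 to 21 higher and 7 to 25 lower, with 21 and 25 without miR-217 mimic replicate 1 (6.24% of all genes in either direction), 21 and 17 without miR-217 mimic replicate 2 (1.19%), 15 and 7 without mimic NC replicate 1 (1.11%) and 6 and 10 without mimic NC replicate 2 (0.67%). A lone library is there assumed to vary like the others. Of the 20 members called, 2 kept the call with voom, 18 with no filter, 19 with a pseudocount of 0.1 and 10 to 13 with a library left out, and none changed sign in these settings. Groups that do not overlap numbered 4 higher and 6 lower among 36 members of at least 5 RPKM (9.42% and 13% of all genes under that filter), and 4 and 8 among 35 with at least 20 reads (9.59% and 13.5%). With the replicate block, 20 members were higher and 28 lower, beside 7.54% of all genes. The libraries share only a number: deviations of the same number had a correlation of 0.68 over 13871 genes and 0.34 over 137 members. The median log2 fold change ran from -0.14 to 0.076 with a library left out, and the median difference from the host from -0.17 to 0.14. The median log2 ratio to the host was -0.41 with at least 20 reads, -1.77 with a pseudocount of 1 and -2.17 to -2.04 with a library left out. Members in exons of other genes numbered 22 on either strand and 1 with GENCODE 29. The cause of these shifts was not tested. The quasi-likelihood test on recovered reads was not run. A mean of fewer than 20 reads stood behind 102 of 137 members, and detection by depth was not tested.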
